A study of Arabidopsis thaliana with 9 samples.

Results

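The plastid genome of Arabidopsis thaliana carries its own set of genes for photosynthesis, for gene expression and for a few other tasks, and their transcripts were followed here in seedlings on the compound FPX. The members were the probe sets of the deposited table whose single annotated gene is a protein-coding gene of the plastid genome, leaving out the ndh genes. The rule found 51 probe sets for 51 genes, out of 11228 probe sets tested and 5981 with a single gene. All 51 had a plastid locus in the RefSeq gene table (assembly TAIR10.1), which holds 67 such gene names. Another 6 probe sets listed more than 1 plastid locus and were left out. The study measured total RNA of whole wild-type seedlings on 9 Affymetrix arrays, 3 per group. The groups were seedlings 4 d old grown on MS medium (0 d), such seedlings after 2 d on medium with 45 µM FPX (FPX 2 d), and such seedlings after 8 d on that medium (FPX 8 d). FPX is known as an inducer of callus, a mass of dividing cells. Time on FPX also added 2 and 8 d of age, and since untreated seedlings of equal age were not analysed here, treatment and age cannot be told apart. The 0 d arrays belong to another series too and were normalized again, and whether they were run beside the FPX arrays is unknown, so batch and treatment cannot be told apart either. Arrays with auxin and cytokinin, which the study set beside FPX, were not analysed here.

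Plastid genes are read by a pair of RNA polymerases. The plastid-encoded polymerase (PEP) is a bacterial-type enzyme whose core subunits are made from the plastid rpo genes, with sigma factors from the nucleus. The nuclear-encoded polymerase (NEP) is a phage-type enzyme that reads the rpo genes themselves, so that PEP is built on NEP's transcripts. In tobacco plants without PEP, plastid genes were sorted into class I (read by PEP), class II (read by both enzymes) and class III (read by NEP), and most of them are co-transcribed in operons. The classes and operons used here come from that general knowledge and were not measured in these seedlings. Class I held 25 members, class II 22 and class III 4.

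The table is not the whole array. In a one-way test over 0 d, FPX 2 d and FPX 8 d, 11202 of 11228 probe sets (99.77%) and 51 of 51 members had a p under 0.04, so probe sets that did not differ between the groups may be absent, and counts of members do not stand for all plastid genes. The correlation (r) was 0.987 to 0.991 between arrays of the same group and 0.712 to 0.893 between arrays of different groups. Values are MAS5 signals, in arbitrary units on a linear scale, tested as log2(signal + 16) with limma over all probe sets, and a call means a Benjamini-Hochberg adjusted p under 0.05. If the table was selected on differences between these same groups, the adjusted p-values are too low and calls come too easily. No label says that the arrays of a group stand for separately grown seedlings, and p-values cover the spread among these samples alone, which may be technical. In whole seedlings, fewer cells with chloroplasts and less plastid RNA per cell cannot be told apart. The labels name a standard Affymetrix cRNA protocol, which is known to prime from poly(A) tails, and plastid mRNAs carry no stable tails, so how much of each plastid transcript was labelled is unknown.

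After 8 d on FPX, the transcripts of all 51 members were lower than at 0 d, with a median log2 change of −1.08 and a range of −2.05 (atpH) to −0.39 (psbJ). Under scaling on the poly(A) spike-in controls 33 of 51 passed, and psbJ, psbK, psbI and rps3 had changes above 0 that did not pass, while 45 passed after quantile normalization and 49 by scaling on the hybridization controls. The other falls at 8 d that did not pass on the poly(A) controls were those of petL, petG, psaB, psbT, petB, psbZ, psbM, atpB, atpE, rps15, rps19, rpl14, rpl36 and accD. Among all tested probe sets 36.1% were called lower and 54.9% higher in that contrast, and their median change was 0.36, a difference of −1.44 for the members. Scaling on controls or on array medians shifts all probe sets of an array alike, so it leaves this difference as it is. Shares of all probe sets, here and below, are for the deposited scale. They were not counted under other scalings, so counts of members under those cannot be set beside them. On all 51 the 3 arrays at 8 d lay below the 3 arrays at 0 d, as they did for 36.6% of all probe sets. The fall was at least 2-fold for 30 members, against 15.7% of all probe sets.

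After 2 d on FPX, 36 of the 51 members (70.6%) had fallen, 1 had risen and 14 had no call. Over all probe sets 28.1% were called lower and 44.6% higher at that time, with a median change of 0.17, against −0.48 for the members. Groups did not overlap, with 2 d below 0 d, on 37 members and on 30.1% of all probe sets. The fall was at least 2-fold on 6 members, rpoB, rpoC1, rpoC2, rpl20, rps16 and rps2, against 4.94% of all probe sets. This list depends on the pseudocount, and with 64 rpoB (−0.80) and rpoC2 (−0.89), for instance, fell short of 2-fold. After quantile normalization 27 members fell at 2 d, by scaling on the hybridization controls 31, on the poly(A) controls 14, and with array medians set to 0, 42. The share of 28.1% is for the deposited scale and cannot be set beside these counts. Scaling on controls or on array medians leaves the difference between the medians of members and of all probe sets (−0.65) as it is. On the poly(A) controls the falls of psaI, ycf4, cemA, petA, psaJ, psbB, psbH, petB, psbE, psbF, atpE, atpI, atpF, matK, clpP, accD and 6 ribosomal protein genes (rpl33, rps18, rps19, rpl22, rps3 and rpl36) did not pass at 2 d, and psbD, psbZ, psbI, petL and petG were called higher beside psbK.

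Between 2 d and 8 d, 43 of the 51 members fell and 0 rose by limma (also 0 at an unadjusted p under 0.05), with a median change of −0.64. In that contrast 32.1% of all probe sets were called lower and 43.9% higher, with a median of 0.15. Groups did not overlap, with 8 d below 2 d, on 44 members and on 33.3% of all probe sets. At least 2-fold falls were seen on 8 members (11.2% of all probe sets), namely psbD, atpH, atpA, psbC, atpF, psbB, petL and petG. By scaling on the hybridization controls 37 members fell, and on the poly(A) controls 32, without psaB, petB, psbJ, ycf3, atpB, atpE, matK, rpl20, rps19, rpl22 and accD.

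**Figure D1:**
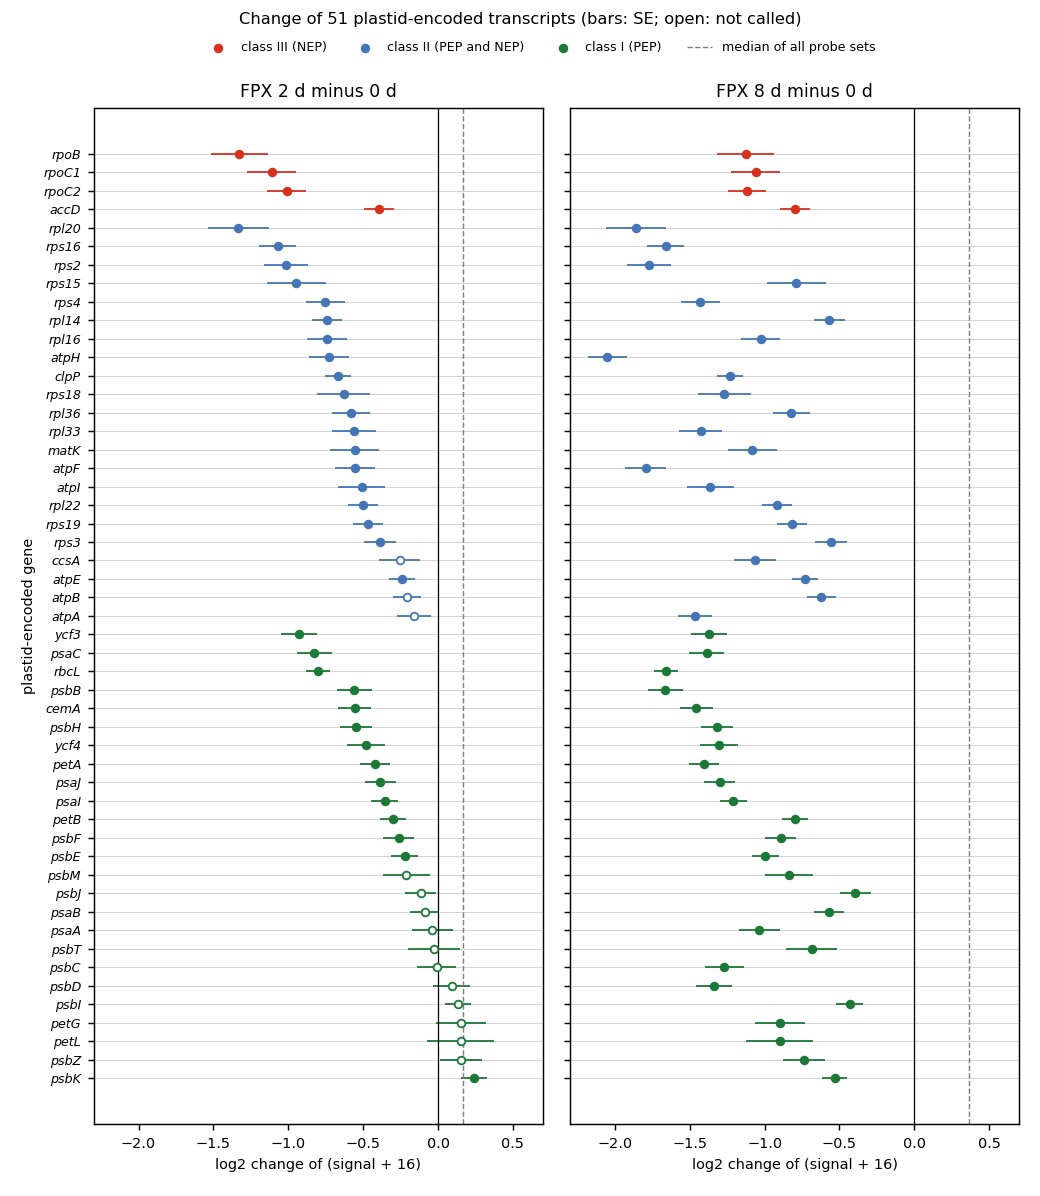
Log2 change of (signal + 16) for each of the 51 members at 2 d (left) and 8 d (right) against 0 d, sorted by class and by the change at 2 d. Points are estimates with their SE over 3 arrays a group, open points had no call, and the dashed line is the median of all probe sets (0.17 and 0.36). At 2 d rpl20 and rpoB (both −1.33) lie furthest left and most open points belong to class I, and at 8 d all 51 points lie below 0 (4 of them lie above 0 under scaling on the poly(A) controls).

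The 3 classes held different mixes of early and late falls, a difference that was not tested. The classes were set with earlier results of these data known. Of the 25 members of class I, 13 fell at both steps, that is between 0 d and 2 d and between 2 d and 8 d. Another 11 had no call at 2 d and fell between 2 d and 8 d, and psbK rose and then fell. None of class I (0 of 25) fell by 2 d without a further called fall, though ycf3 did so on the poly(A) controls. In class I, 8 members fell at both steps after quantile normalization and 2 on the poly(A) controls. Of the 22 members of class II, 14 fell at both steps, 5 fell by 2 d with no called change after it, and 3 fell late. Without 0 d replicate 2 or FPX 2 d replicate 3, 5 of class II fell late, and without 0 d replicate 3, 2 did. With array medians set to 0, 0 of class II fell late and 3 early alone, by scaling on the hybridization controls 9 fell at both steps, and on the poly(A) controls 4 fell at both steps, 3 early alone and 7 late. Of the 4 members of class III, accD fell at both steps and rpoB, rpoC1 and rpoC2 fell by 2 d with no called change after it. Over all probe sets on the deposited scale, 11.9% fell at both steps, 8.4% at the first alone and 10.9% at the second alone.

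In log2 change, the median at 2 d was −0.22 in class I, −0.57 in class II and −1.06 in class III. At 8 d it was −1.04 in class I, −1.16 in class II and −1.09 in class III. Between 2 d and 8 d it was −0.83, −0.55 and −0.03 in the same order of classes. Of the 4 members of class III 3 belong to the rpoB operon, so the medians of class III follow that operon. Its other member, accD, changed by −0.40 at 2 d and −0.80 at 8 d. With a pseudocount of 64 the median of class III was −0.845 at 2 d and −0.877 at 8 d. At 2 d, 8 of 25 members of class I, 15 of 22 of class II and 4 of 4 of class III passed after quantile normalization, and 3, 8 and 3 did under scaling on the poly(A) controls. The median of class I at 2 d was −0.08 after quantile normalization, −0.12 on the hybridization controls, 0.14 on the poly(A) controls and −0.40 with array medians set to 0, and on the poly(A) controls that of class II was −0.21 and that of class III −0.70. At 8 d the medians on the poly(A) controls were −0.47 in class I, −0.59 in class II and −0.52 in class III, and between 2 d and 8 d they were −0.62 in class I and −0.34 in class II. On the poly(A) controls that of class III between 2 d and 8 d was 0.18 (0.12 on the hybridization controls). The place of ycf3, ycf4 and cemA in class I is the least certain, and without them 10 of 22 members of class I fell at 2 d, with a median of −0.16. Over all probe sets 28.1% were called lower at 2 d on the deposited scale, and the shares under the other scalings were not counted.

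**Figure D2:**
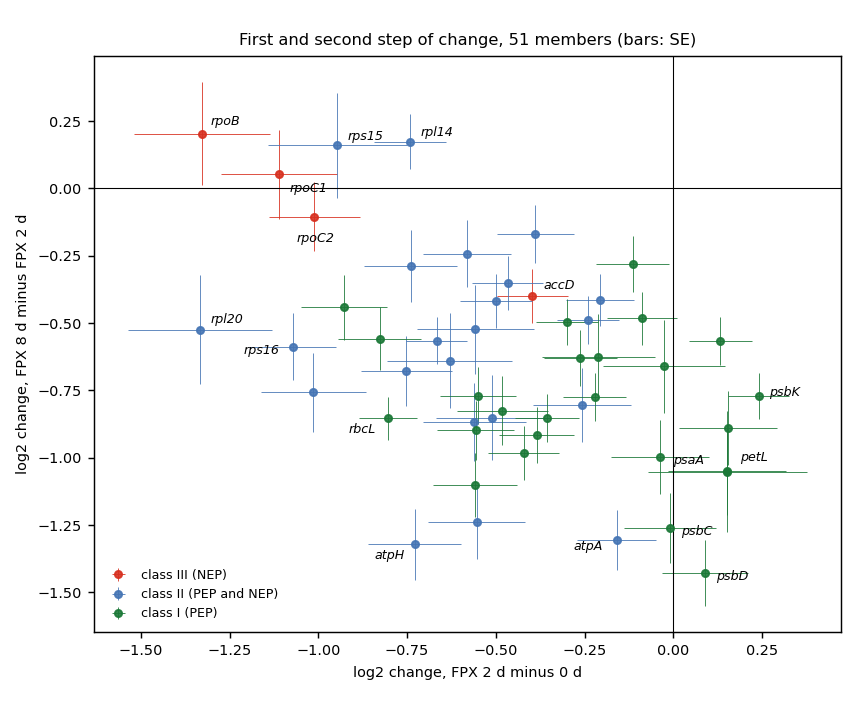
Log2 change between 0 d and 2 d (horizontal) against that between 2 d and 8 d (vertical) for the 51 members, coloured by class, with SE bars over 3 arrays a group. Both axes use the 2 d arrays, so the slope of the cloud carries no meaning of its own. rpoB (−1.33 and 0.20) and rpoC1 (−1.11 and 0.05) lie at the left near 0 on the vertical axis, and psbD (0.09 and −1.43) lies near 0 on the horizontal axis at the bottom.

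The rpoB operon encodes core subunits of PEP and is read by NEP. rpoB (ArthCp014), the gene of the beta subunit, had signals of 94.0, 103 and 111 at 0 d, 17.4, 43.0 and 37.0 after 2 d and 33.2, 50.7 and 32.7 after 8 d. rpoC1 (ArthCp013), the gene of the beta' subunit, had 1699, 1940.2 and 1682 at 0 d, 1071, 606 and 821 after 2 d and 868, 776 and 885 after 8 d. rpoC2 (ArthCp012), the gene of the beta'' subunit, had 524, 533 and 505 at 0 d, 283, 209 and 265 after 2 d and 235, 269 and 195 after 8 d. On each of the 3 genes every array on FPX lay below every array at 0 d, while the arrays at 8 d and 2 d overlapped. The log2 change at 2 d was −1.33 ± 0.19 (SE, limma adjusted p = 9.45e-05) for rpoB, −1.11 ± 0.16 (adjusted p = 0.000116) for rpoC1 and −1.01 ± 0.13 (adjusted p = 3.58e-05) for rpoC2. At 8 d the changes were −1.12, −1.06 and −1.12 in the same order. The change between 2 d and 8 d did not pass for any of the 3 by limma (also 0 at an unadjusted p under 0.05), with 95% confidence intervals of −0.22 to 0.62 for rpoB, −0.31 to 0.41 for rpoC1 and −0.39 to 0.18 for rpoC2. rpoB was the only member whose mean signal lay under the 25th percentile of all probe sets, so its change rests on dim values. With a pseudocount of 1 its change at 2 d was −1.72, and with 64 it was −0.80, both called. In every setting in which they were fitted, rpoB, rpoC1 and rpoC2 fell by 2 d with no called change after it (rpoB was removed by the filter on dim probe sets).

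accD (ArthCp031), the gene of a carboxylase subunit in fatty acid synthesis, opens a cluster that runs on through psaI, ycf4 and cemA to petA. Its signals were 1784, 2167 and 1783 at 0 d, 1503, 1473 and 1351 after 2 d and 1048, 1180.0 and 1044 after 8 d. The groups did not overlap at either step, and accD, a class III gene, fell by less than each rpo gene at 2 d (−0.40 ± 0.10) and as much again between 2 d and 8 d (−0.40 ± 0.10). The second of these falls did not pass by scaling on the hybridization controls (−0.26, adjusted p = 0.0596).

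Downstream of accD, the 4 class I genes of the cluster fell more by 8 d. psaI (ArthCp032), a small photosystem I subunit gene, had signals of 3720.4, 4154 and 3597 at 0 d, 3163, 2933 and 2845 after 2 d and 1538, 1663 and 1732 after 8 d. ycf4 (ArthCp033), which encodes an assembly factor of photosystem I, had 4717, 5845 and 4223 at 0 d, 3946, 3294 and 3277 after 2 d and 1943, 2156 and 1811 after 8 d. On both genes the 3 groups were apart from each other. cemA (ArthCp034), the gene of an envelope membrane protein, had 6625, 8217 and 7146 at 0 d, 5226, 5081 and 4584 after 2 d and 2684, 2929.6 and 2371 after 8 d. petA (ArthCp035), the gene of cytochrome f, had 6341, 7688 and 7742 at 0 d, 5642, 5266 and 5265 after 2 d and 2482, 2915 and 2778 after 8 d. These groups were apart as well, and the levels stepped down at each time. The log2 change at 8 d was −1.21 for psaI, −1.31 for ycf4, −1.46 ± 0.11 (SE, limma adjusted p = 1.78e-07) for cemA and −1.41 for petA, against −0.80 for accD. At 2 d the 5 genes lay close together, between −0.56 (cemA) and −0.36 (psaI). The fall of petA at 2 d did not pass after quantile normalization (−0.22, adjusted p = 0.077).

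A long cluster of ribosomal protein genes, from rpl23 to rpoA, had 6 members, all of class II, and all fell by 2 d. rps19 (ArthCp063), of the small ribosomal subunit, had signals of 5244, 6149.6 and 5759 at 0 d, 4373, 4003 and 4008 after 2 d and 3399.7, 3470.2 and 2850.5 after 8 d. rpl22 (ArthCp062), of the large subunit, had 8412, 9999 and 8291 at 0 d, 6036, 6641 and 6147 after 2 d and 4395, 5177 and 4523 after 8 d. These genes fell at both steps, and their groups were apart. rps3 (ArthCp061), of the small subunit, had 5291, 6786 and 6349.5 at 0 d, 4676, 4428 and 4891 after 2 d and 4139, 4548 and 3792 after 8 d. rpl16 (ArthCp060), of the large subunit, had 2866, 3952 and 3355 at 0 d, 2106, 1867 and 2056 after 2 d and 1751, 1813 and 1393 after 8 d. On rps3 the arrays at 8 d and 2 d overlapped, and on rpl16 the 3 arrays at 8 d lay just below those at 2 d. rpl14 (ArthCp059), of the large subunit, had 2527, 2799 and 2419 at 0 d, 1702, 1544 and 1373 after 2 d and 1664, 1876 and 1666 after 8 d. rpl36 (ArthCp057), of the large subunit, had 5006, 4856 and 5859 at 0 d, 3441, 3184 and 3863 after 2 d and 3499.8, 2690.4 and 2710.4 after 8 d. On both of these the arrays at 8 d and 2 d overlapped, and those at 0 d lay above all the others.

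The log2 changes of this cluster at 2 d ran from −0.74 (rpl14, adjusted p = 6.54e-05 in limma) to −0.39 (rps3). At 8 d they ran from −1.03 (rpl16) to −0.56 (rps3), so all 6 fell by less than the median member. Between 2 d and 8 d rps19 (−0.35) and rpl22 (−0.42) fell, and neither passed by scaling on the hybridization controls (−0.21, adjusted p = 0.107 for rps19 and −0.28, adjusted p = 0.0518 for rpl22). The other 4 had no call in that contrast, with intervals of −0.41 to 0.07 for rps3, −0.58 to 0.00 for rpl16, −0.05 to 0.40 for rpl14 and −0.51 to 0.03 for rpl36. rpl14 rose between 2 d and 8 d by scaling on the hybridization controls (0.32, adjusted p = 0.0222). rpl16 fell in that contrast without 0 d replicate 1, 0 d replicate 2 or FPX 8 d replicate 2 (adjusted p = 0.0431 to 0.0466), rpl36 without FPX 8 d replicate 1 (adjusted p = 0.0168), and both with array medians set to 0 (−0.36, adjusted p = 0.0251 for rpl16 and −0.32, adjusted p = 0.0358 for rpl36). The falls of rps3 did not pass after quantile normalization at 2 d (−0.21, adjusted p = 0.114) or at 8 d (−0.23, adjusted p = 0.0671), nor by scaling on the hybridization controls at 2 d (−0.28, adjusted p = 0.0543).

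The operon from rps2 to atpA joins a ribosomal protein gene to 4 genes of the chloroplast ATP synthase, and its members differed in time. rps2 (ArthCp011), at its head, had signals of 1274, 1796 and 1588 at 0 d, 804, 699 and 759.5 after 2 d and 448, 523 and 361 after 8 d. atpI (ArthCp010), the gene of a membrane subunit, had 361, 544 and 416 at 0 d, 303, 346 and 257 after 2 d and 175, 172 and 133 after 8 d. Both stepped down at each time with no overlap. atpH (ArthCp009), the gene of the subunit that forms the rotor ring, had 2366, 2881 and 2426 at 0 d, 1395, 1779 and 1445 after 2 d and 643, 668 and 509 after 8 d. atpF (ArthCp008), the gene of a stalk subunit, had 2249, 2534 and 2029 at 0 d, 1374, 1813 and 1451 after 2 d and 707, 689 and 539 after 8 d. These showed the same steps, and the deeper one came after 2 d. atpA (ArthCp007), the gene of the alpha subunit at the far end, had 2681, 3196 and 2392 at 0 d, 2717, 2375 and 2272 after 2 d and 972, 981 and 992 after 8 d. Its arrays at 2 d and 0 d overlapped, and those at 8 d lay far below both.

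At 2 d the log2 change was −1.01 ± 0.15 (SE, limma adjusted p = 9.72e-05) for rps2, −0.51 for atpI, −0.73 for atpH and −0.55 for atpF. For atpA it was −0.16 ± 0.11 and did not pass (adjusted p = 0.212), though it did with array medians set to 0 (−0.34, adjusted p = 0.0157). Between 2 d and 8 d the changes were −1.32 for atpH, −1.30 for atpA and −1.24 for atpF, −0.85 for atpI and −0.76 for rps2, so rps2 had the largest fall of the operon at the first step and the smallest at the second. At 8 d atpH had the largest fall of all members, −2.05 ± 0.13 (SE, adjusted p = 4.77e-08 in limma). The call of atpI at 2 d ended without 0 d replicate 2 or FPX 2 d replicate 3 (adjusted p = 0.0514 to 0.0515).

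In the cluster from petL to rps18, petL and petG had no call at 2 d and the other 3 genes had fallen, a difference that was not tested. petL (ArthCp040), a small cytochrome b6f subunit gene, had signals of 671, 1198 and 879 at 0 d, 1139, 1237 and 691 after 2 d and 501, 480.4 and 432 after 8 d. petG (ArthCp041), another small subunit gene of that complex, had 280.3, 310.5 and 397 at 0 d, 328, 435 and 337 after 2 d and 188, 192 and 129.9 after 8 d. On both the arrays at 2 d and 0 d overlapped, with changes of 0.15 ± 0.22 for petL (95% interval −0.34 to 0.64) and 0.15 ± 0.17 for petG (95% interval −0.21 to 0.52). Under scaling on the poly(A) controls both rose at 2 d (0.52, adjusted p = 0.0226 for petL and 0.52, adjusted p = 0.00882 for petG) and neither passed at 8 d (−0.33, adjusted p = 0.119 for petL and −0.33, adjusted p = 0.0717 for petG). psaJ (ArthCp042), a small photosystem I subunit gene, had 5969, 6475 and 7387 at 0 d, 4602, 5246 and 5296 after 2 d and 2926, 2595 and 2490.3 after 8 d. rpl33 (ArthCp043), of the large ribosomal subunit, had 6578, 7470.5 and 8187 at 0 d, 4365, 5532 and 5173 after 2 d and 2967, 3158 and 2186 after 8 d. rps18 (ArthCp044), of the small subunit, had 1514, 2439 and 2212 at 0 d, 1277, 1184 and 1439 after 2 d and 896, 944 and 666 after 8 d. These 3 had fallen by 2 d with no overlap, with log2 changes of −0.39 for psaJ, −0.56 for rpl33 and −0.63 for rps18. The calls of psaJ and rpl33 at 2 d ended after quantile normalization (−0.19, adjusted p = 0.14 for psaJ and −0.37, adjusted p = 0.0513 for rpl33). All 5 fell between 2 d and 8 d, with log2 changes of −1.05 for petL, −1.05 for petG, −0.92 for psaJ, −0.87 for rpl33 and −0.64 for rps18.

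**Figure D3:**
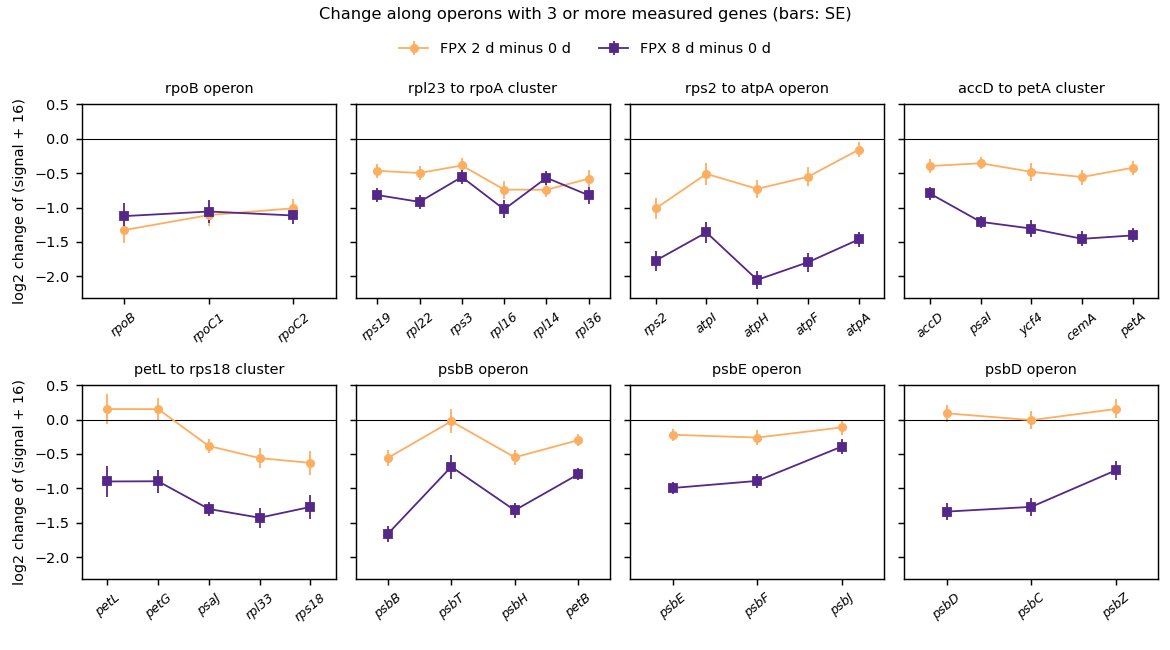
Log2 change against 0 d at 2 d (circles) and 8 d (squares) for each measured gene of the 8 operons or clusters with 3 or more members, in operon order, with SE bars over 3 arrays a group. In the rpoB operon the lines lie together near −1, in the psbD operon the line at 2 d stays near 0 while that at 8 d lies between −1.34 and −0.74, and in the rps2 to atpA operon the line at 2 d starts at −1.01 (rps2) and ends at −0.16 (atpA).

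The psbD operon encodes proteins of the photosystem II core and has a promoter known to answer to blue light. psbD (ArthCp017), the gene of the reaction centre protein D2, had signals of 1169, 1537 and 1151 at 0 d, 1535, 1305 and 1248 after 2 d and 495, 476 and 514 after 8 d. psbC (ArthCp018), the gene of the inner antenna CP43, had 3083, 3818 and 2939 at 0 d, 3399.8, 3376 and 2956 after 2 d and 1287, 1588 and 1186 after 8 d. psbZ (ArthCp019), a small subunit gene, had 3106, 3889 and 2936 at 0 d, 3691, 3788 and 3491 after 2 d and 2187, 2179 and 1591 after 8 d. On all 3 the arrays at 2 d and 0 d overlapped, and those at 8 d lay below both. By limma none of the 3 was called at 2 d (also 0 at an unadjusted p under 0.05), but under scaling on the poly(A) controls psbD (0.46, adjusted p = 0.00811) and psbZ (0.52, adjusted p = 0.00736) rose. The log2 change at 2 d was 0.09 ± 0.12 for psbD, −0.01 ± 0.13 for psbC and 0.15 ± 0.14 for psbZ, with 95% intervals of −0.18 to 0.35, −0.29 to 0.28 and −0.15 to 0.46. Between 2 d and 8 d psbD changed by −1.43 ± 0.12 (SE, limma adjusted p = 1.27e-06), the largest fall of all members in that contrast, psbC by −1.26 and psbZ by −0.89.

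The psbB operon runs from photosystem II genes to cytochrome b6f genes. psbB (ArthCp049), the gene of the inner antenna CP47, had signals of 1992, 2444 and 1887 at 0 d, 1499, 1543 and 1228 after 2 d and 669, 672 and 614 after 8 d. psbT (ArthCp050), a small subunit gene, had 733, 1117 and 716 at 0 d, 890.0, 808 and 772 after 2 d and 619.6, 516 and 425 after 8 d. The groups of psbB were apart at each step, while on psbT the arrays at 2 d lay within the range at 0 d. psbH (ArthCp052), a phosphoprotein gene of photosystem II, had 4004, 4774 and 3897 at 0 d, 2893, 3028 and 2694 after 2 d and 1741, 1817 and 1491 after 8 d. petB (ArthCp053), the gene of cytochrome b6, had 12664, 11931 and 11244 at 0 d, 9683, 9551 and 9845 after 2 d and 6396, 7475 and 6770.0 after 8 d. Both stepped down at each time. At 8 d psbB had changed by −1.66 ± 0.12 (SE, limma adjusted p = 1.15e-07), psbH by −1.32, petB by −0.80 and psbT by −0.69. At 2 d psbB (−0.56), psbH (−0.55) and petB (−0.30) had fallen, and psbT had no call (−0.03 ± 0.17). The call of petB at 2 d ended after quantile normalization (−0.07, adjusted p = 0.463) and by scaling on the hybridization controls (−0.20, adjusted p = 0.109).

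Of the photosystem II operons with 3 or more members, the psbE operon had the smallest median change at 8 d (−0.89). psbE (ArthCp039), a cytochrome b559 subunit gene, had signals of 7864, 7122 and 7050.4 at 0 d, 6559.9, 6044 and 6269.8 after 2 d and 3888, 3345 and 3808 after 8 d. psbF (ArthCp038), the gene of the other subunit of that cytochrome, had 10027, 8858 and 8884 at 0 d, 7656, 8495 and 7037 after 2 d and 4487, 5405 and 5069 after 8 d. psbJ (ArthCp036), a small subunit gene, had 3083, 3550.2 and 3463 at 0 d, 2923, 3009.8 and 3392 after 2 d and 2757, 2680.0 and 2255 after 8 d. On psbE and psbF the groups were apart, and on psbJ the arrays at 2 d and 0 d overlapped, with no call at 2 d except with array medians set to 0 (−0.29, adjusted p = 0.0261). The falls at 2 d were small, −0.22 for psbE and −0.26 for psbF. The call of psbE ended without 0 d replicate 1, 0 d replicate 2, FPX 2 d replicate 1, FPX 2 d replicate 2, FPX 2 d replicate 3 or FPX 8 d replicate 3 (adjusted p = 0.0512 to 0.146), and that of psbF without 0 d replicate 1, FPX 2 d replicate 1 or FPX 2 d replicate 3 (adjusted p = 0.0851 to 0.146). Both also ended after quantile normalization (−0.03, adjusted p = 0.775 for psbE and −0.08, adjusted p = 0.497 for psbF) and by scaling on the hybridization controls (−0.12, adjusted p = 0.254 for psbE and −0.16, adjusted p = 0.226 for psbF). At 8 d the changes were −0.99, −0.89 and −0.39 for psbE, psbF and psbJ. psbJ was the smallest of all 51, and its call at 8 d ended after quantile normalization (−0.19, adjusted p = 0.113) and by scaling on the hybridization controls (−0.15, adjusted p = 0.26). Its fall between 2 d and 8 d (−0.28) ended without FPX 2 d replicate 3 or FPX 8 d replicate 3 (adjusted p = 0.116 to 0.128).

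psbK and psbI, neighbouring genes of small photosystem II subunits, had changes above 0 at 2 d and small falls at 8 d. psbK (ArthCp005) had signals of 7284, 7479 and 7389 at 0 d, 8649.8, 8274 and 9267 after 2 d and 5165, 5465 and 4705 after 8 d. psbI (ArthCp006) had 4185, 5153 and 4593 at 0 d, 5058, 5169 and 4990.2 after 2 d and 3444, 3475 and 3351 after 8 d. On psbK the arrays at 2 d lay above those at 0 d and those at 8 d below both, and on psbI the arrays at 2 d and 0 d overlapped. psbK rose by 0.24 ± 0.09 (SE, limma adjusted p = 0.025) at 2 d, the only member to rise on the deposited scale, and the change of psbI was 0.13 ± 0.09 with no call. The rise of psbK did not pass with array medians set to 0 (0.06, adjusted p = 0.55) or without 0 d replicate 1, FPX 2 d replicate 1 or FPX 2 d replicate 3 (adjusted p = 0.0547 to 0.0972). psbI rose too after quantile normalization (0.28, adjusted p = 0.0152) and under scaling on the poly(A) controls (0.50, adjusted p = 0.00221). At 8 d both had fallen, with changes of −0.53 for psbK and −0.43 for psbI, and neither passed after quantile normalization (−0.15, adjusted p = 0.13 for psbK and −0.15, adjusted p = 0.127 for psbI), nor did psbI by scaling on the hybridization controls (−0.19, adjusted p = 0.104).

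The psaA operon encodes the paired reaction centre proteins of photosystem I. psaA (ArthCp022) had signals of 3305, 4236 and 3221 at 0 d, 3785, 3763 and 2922 after 2 d and 1751, 1926 and 1531 after 8 d. psaB (ArthCp021) had 13277, 13578 and 12674 at 0 d, 12706, 12312 and 12133 after 2 d and 8050.3, 10263 and 8425 after 8 d. On both the arrays at 2 d and 0 d overlapped and those at 8 d lay below both. The change at 2 d was −0.04 ± 0.14 for psaA and −0.09 ± 0.10 for psaB, with no call. At 8 d psaA had changed by −1.03 ± 0.14 (SE, limma adjusted p = 2.37e-05) and psaB by −0.57 ± 0.10. The call of psaB at 8 d ended after quantile normalization (−0.05, adjusted p = 0.605), and at 2 d it was called lower with array medians set to 0 (−0.27, adjusted p = 0.0331).

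psaC, of photosystem I, and rps15, of the small ribosomal subunit, were placed in the same transcript unit and lie at opposite sides of a run of ndh genes. Their order was checked in the gene table, but the direction of reading was not. psaC (ArthCp075), the gene of an iron-sulphur protein, had signals of 1009, 1360.0 and 1203 at 0 d, 611, 706 and 664 after 2 d and 448, 481 and 402 after 8 d. rps15 (ArthCp081) had 800.4, 1211 and 777 at 0 d, 539, 369 and 502 after 2 d and 522, 634 and 425 after 8 d. psaC stepped down at each time with no overlap, while on rps15 the arrays at 8 d and 2 d overlapped below those at 0 d. psaC changed by −0.83 ± 0.12 at 2 d and −1.39 at 8 d. rps15 changed by −0.95 ± 0.20 (SE, limma adjusted p = 0.0012) at 2 d and −0.79 at 8 d, and between 2 d and 8 d by 0.16 ± 0.20 with no call (95% interval −0.27 to 0.59). The 7 ndh probe sets with a single plastid gene, left out by the rule, had a median change of −0.72 at 2 d and −1.28 at 8 d.

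rbcL (ArthCp030), the gene of the large subunit of rubisco, had signals of 2473, 2293 and 2239.9 at 0 d, 1304, 1332 and 1352 after 2 d and 693, 719.6 and 775 after 8 d. Its arrays stepped down at each time with little spread within a group, and it had the lowest adjusted p of all members at 8 d. It changed by −0.80 ± 0.08 at 2 d (SE, limma adjusted p = 6.23e-06) and −1.66 ± 0.08 at 8 d (adjusted p = 6.19e-09).

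Next to rbcL in the genome lie atpB and atpE, the genes of the beta and epsilon subunits of the ATP synthase. atpB had signals of 18199, 19633 and 16164 at 0 d, 15884, 15728 and 15013 after 2 d and 10813, 12567 and 11669 after 8 d. atpE had 17561, 16877 and 15143 at 0 d, 14051, 14249 and 13591 after 2 d and 9186, 10361 and 10318 after 8 d. On both the 3 groups were apart, and the steps were small. atpB changed by −0.21 ± 0.10 at 2 d, with no call, and −0.62 at 8 d. atpE changed by −0.24 ± 0.09 at 2 d, which passed, and −0.73 at 8 d. After quantile normalization atpB did not pass at 8 d (−0.09, adjusted p = 0.313) and the change of atpE at 2 d turned to 0.02, adjusted p = 0.834. The call of atpE at 2 d ended by scaling on the hybridization controls (−0.14, adjusted p = 0.247) and without 0 d replicate 1, 0 d replicate 2, FPX 2 d replicate 1 or FPX 2 d replicate 3 (adjusted p = 0.0614 to 0.102). atpB was called lower at 2 d without 0 d replicate 3 (adjusted p = 0.0232) and with array medians set to 0 (−0.39, adjusted p = 0.00375).

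**Figure D4:**
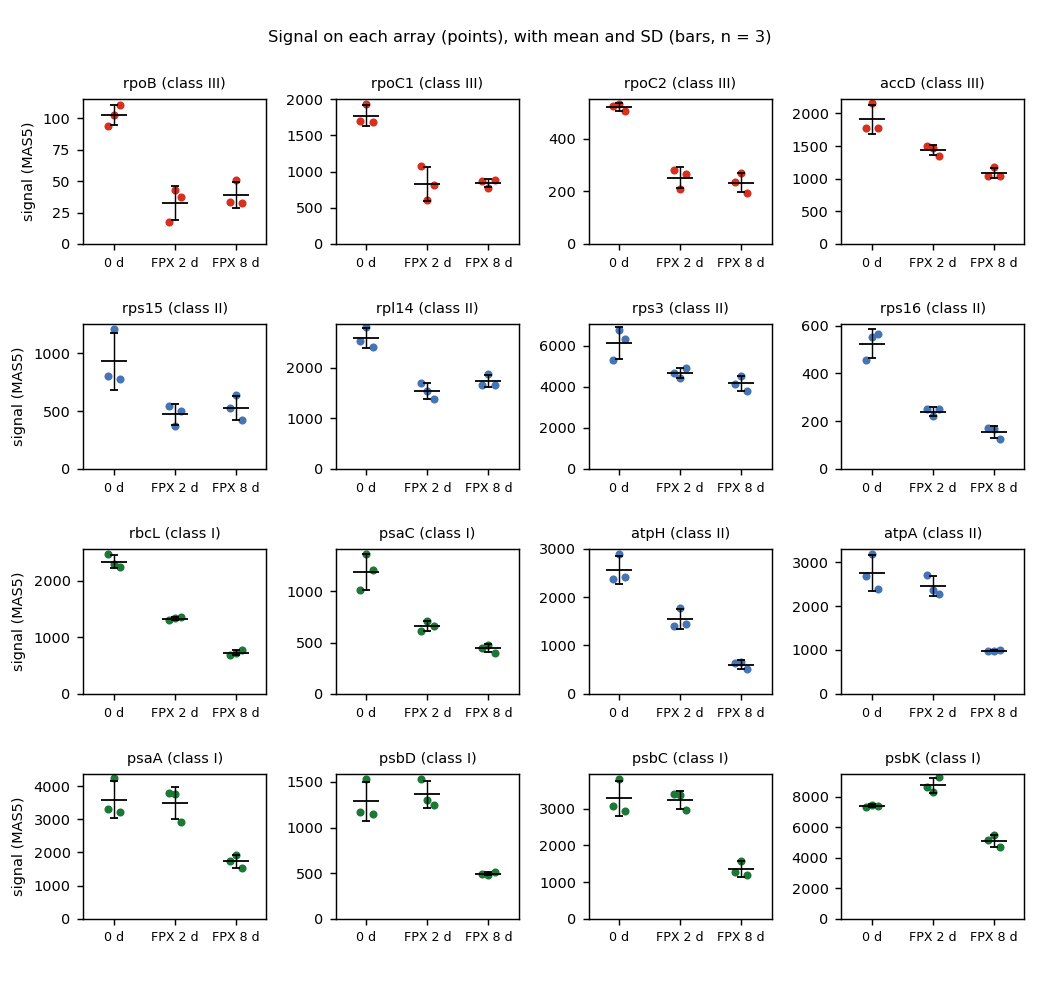
Signal (MAS5, linear axis from 0) on each of the 9 arrays for 16 members, with points for arrays and bars for the mean ± SD (n = 3), in the order 0 d, FPX 2 d and FPX 8 d. In the top row the 3 rpo genes sit at one low level at both times on FPX, in the third row rbcL steps down at each time, and in the bottom row psaA, psbD and psbC overlap their 0 d arrays at 2 d and lie below them at 8 d.

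The other members fell at 8 d as well. rpl20, of the large ribosomal subunit, changed by −1.33 ± 0.20 at 2 d, and by −1.86 at 8 d. Its further fall between 2 d and 8 d (−0.53) did not pass by scaling on the hybridization controls (−0.38, adjusted p = 0.109) or without FPX 2 d replicate 1, FPX 2 d replicate 3, FPX 8 d replicate 1, FPX 8 d replicate 2 or FPX 8 d replicate 3 (adjusted p = 0.055 to 0.116). clpP, of the same transcript unit, which encodes a protease subunit, changed by −0.67 at 2 d and −1.23 at 8 d. The small-subunit genes rps16 (−1.07 and −1.66) and rps4 (−0.75 and −1.43) fell at both steps, as did ycf3 (−0.93 and −1.37), a photosystem I assembly gene. Among class I genes ycf3 had the largest fall at 2 d.

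matK, which encodes a splicing factor of plastid introns, changed by −0.56 at 2 d and −1.08 at 8 d. Its call at 2 d ended after quantile normalization (−0.39, adjusted p = 0.0835). Its fall between 2 d and 8 d (−0.52) did not pass after quantile normalization (−0.41, adjusted p = 0.0593), by scaling on the hybridization controls (−0.38, adjusted p = 0.0534) or without FPX 8 d replicate 3 (adjusted p = 0.0574). ccsA, needed for the attachment of heme to cytochromes, changed by −0.26 ± 0.14 at 2 d with no call and by −1.06 at 8 d. It was called lower at 2 d with array medians set to 0 (−0.44, adjusted p = 0.0154). psbM, a small photosystem II subunit gene, changed by −0.21 ± 0.16 at 2 d with no call (called lower with array medians set to 0, −0.39, adjusted p = 0.046) and by −0.84 at 8 d.

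Sorted by what they encode, every member of the gene expression machinery had fallen by 2 d, and every member of electron transport and ATP synthesis fell after it. At 2 d all 17 genes of the RNA polymerase, the ribosome and intron splicing had fallen, with a median of −0.74, where 28.1% of all probe sets were called lower. Between 2 d and 8 d, 9 of these 17 genes fell, where 32.1% of all probe sets were called lower and 43.9% higher. The 8 without a called change were 5 of the 13 ribosomal protein genes and 3 of the 3 rpo genes. Among the 27 genes of the photosystems, the cytochrome b6f complex and the ATP synthase, 13 had fallen at 2 d (median −0.21), and all 27 fell between 2 d and 8 d (median −0.85). Within photosystem II, 4 of 12 genes had fallen at 2 d (psbB, psbH, psbE and psbF), within photosystem I, 3 of 5 (psaC, psaI and psaJ), and within the ATP synthase, 4 of 6. Of the 7 remaining genes (ycf4, cemA, rbcL, ycf3, ccsA, clpP and accD), 6 had fallen at 2 d (median −0.56) and all 7 fell after it (median −0.80). Neither fall was thus particular to the group named with it. On the poly(A) controls ycf4, cemA, clpP and accD did not pass at 2 d, nor ycf3 and accD between 2 d and 8 d. These groups were sorted with their values known, and the difference between them was not tested. After quantile normalization rps3, matK and rpl33 of the gene expression group did not pass at 2 d, nor did these 3 and rps18, rps19, rpl22 and rpl36 on the poly(A) controls. Of the electron transport group, psbJ and atpB did not pass between 2 d and 8 d after quantile normalization, psbJ on the hybridization controls or without single arrays, and psaB, petB, atpB, atpE and psbJ on the poly(A) controls.

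Nuclear genes of the same machinery were few in the table, and their changes are given on the deposited scale alone. For the plastid members calls at 2 d depended on the scaling, so the calls and missing calls of nuclear genes may as well. Of all probe sets, 28.1% were called lower and 44.6% higher at 2 d, and 36.1% lower and 54.9% higher at 8 d. Between 2 d and 8 d, 32.1% were called lower and 43.9% higher. In the one-way test 99.77% of all probe sets had a p under 0.04, so counts of measured genes do not stand for whole lists. Of 20 names of plastid transcription, sigma factors and the phage-type polymerase among them, 0 were found with a single gene. Of 33 nuclear genes of plastid ribosomal proteins 9 were measured, and all 9 fell at 2 d (median −0.87) and fell further by 8 d (median −2.28 against 0 d). AT1G64510, AT1G29070, AT4G01310 and AT4G17560 changed by −2.78, −2.49, −2.34 and −2.06 at 8 d. Of 30 nuclear genes of the photosystems, cytochrome b6f, ATP synthase and rubisco 5 were measured. Of these 5, 0 were called by limma at 2 d (0 at an unadjusted p under 0.05, median −0.13) and all fell at 8 d (median −1.07), with PSBY at −1.72, ATPC1 at −1.02, PSAN at −1.22 and PSBW at −1.07. Of 17 nuclear genes of plastid RNA maturation 4 were measured, of which AT5G42310 (0.52) and AT2G18940 (0.61) rose at 2 d. At 8 d AT1G60000 (−1.58), AT5G42310 (−0.96) and AT5G46580 (−0.93) had fallen and AT2G18940 (0.00) had no call.

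Technical measures moved with the members. The poly(A) spike-in controls changed by −0.37 at 2 d and −0.57 at 8 d (mean log2 of 5 probe sets), and the hybridization controls by −0.11 and −0.25 (7 probe sets), and their part in the result was not tested. Across the 51 members, the mean log2 signal had a Spearman correlation of 0.41 with the log2 change at 2 d and 0.41 with that at 8 d. Brighter probe sets thus tended to smaller falls at both times. With the change between 2 d and 8 d the correlation was 0.06. This is a description over members that share arrays and operons. Of the leaf and stomata markers 2 of 3 were measured (STOMAGEN and FMA), and they did not move together at 2 d. Their summed signal was 631.5 to 766 at 0 d, 295 to 365 after 2 d and 92.4 to 156 after 8 d. STOMAGEN changed by −1.45 at 2 d and −3.39 at 8 d, and FMA by 0.06 with no call at 2 d (adjusted p = 0.804 in limma) and −0.62 at 8 d. NAI2 and PYK10, taken here as root markers and both measured, summed to 17414.5 to 17631 at 0 d, 13315 to 14281.5 after 2 d and 13539 to 14710.1 after 8 d. Whether they stand for root alone in whole seedlings was not checked, and they did not move together at 8 d. NAI2 changed by −0.55 at 2 d and −0.02 with no call at 8 d, and PYK10 by −0.31 and −0.39. SIM, the single measured gene of 2 taken as trichome markers, had 768 to 899 at 0 d, 659 to 719.8 after 2 d and 253 to 327 after 8 d. The part of these cell types in the result was not tested.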

How the data were processed

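Total RNA of 9 seedling samples was hybridized to Affymetrix arrays. The authors deposited 1 table of array intensity, made with MAS5 per the submitters' processing notes, without a version. Per the design text, another series holds the raw data of the 0 d arrays, which were normalized anew. The scaling between arrays and the choice of probe sets are not stated. Intensity values were positive and linear, with a 75th percentile of 1047 to 1105 on each array. There were no detection calls to set signals against background, and precision is limited by the 9 arrays.

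Of 11249 probe sets, 21 Affymetrix controls were left out. Genes came from the platform annotation, matched by identifier to the RefSeq gene table (TAIR10.1). A probe set with several genes was not named. Values were tested as log2(signal + 16), which understates the change of dim probe sets, with 1 mean per group, by limma 3.58.1 under R 4.3.3 (two-sided moderated test, 6 residual and 5.24 prior degrees of freedom), adjusted by Benjamini-Hochberg over 11228 probe sets in each of 3 contrasts. The fit was tested on simulated data. Python 3.11.15, pandas 2.3.3, NumPy 2.4.6, SciPy 1.17.1 and matplotlib 3.10.9 were used for tables and plots. The alternatives were other pseudocounts, scalings and filters, a replicate block and leaving out each array, and scaling on the poly(A) controls was chosen after seeing the data. Members, classes, operons and lists were chosen with earlier results of these data known. Every member is named. Signals on each array were to be given for the largest and smallest change at 8 d of each class and for operons with 3 or more members, and those of psaA, psaB, psaC, psbK, psbI, rps15, rbcL, atpB and atpE were added after their values were seen. From each nuclear list, up to 4 measured genes with the lowest adjusted p at 8 d were to be named.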

Additional observations from a re-analysis of the deposited data

Results flagged for a closer look

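The effects at 8 d and at 2 d, both taken against the same 0 d arrays, differed by limma for 43 of the 51 members, and each value below is the log2 difference between 8 d and 2 d. The tests of these differences were adjusted over all probe sets, of which 32.1% were called lower and 43.9% higher. In the psbD, psbB, psbE and psbK operons and for psbM the differences were −1.43 for psbD, −1.26 for psbC, −0.89 for psbZ, −1.10 for psbB, −0.66 for psbT, −0.77 for psbH, −0.50 for petB, −0.77 for psbE, −0.63 for psbF, −0.28 for psbJ, −0.77 for psbK, −0.56 for psbI and −0.62 for psbM. For genes of photosystem I and its assembly, the cytochrome b6f complex, rubisco, cemA and ccsA they were −1.0 for psaA, −0.48 for psaB, −0.56 for psaC, −0.85 for psaI, −0.92 for psaJ, −0.82 for ycf4, −0.44 for ycf3, −0.90 for cemA, −0.98 for petA, −1.05 for petL, −1.05 for petG, −0.85 for rbcL and −0.80 for ccsA. For the ATP synthase they were −0.85 for atpI, −1.32 for atpH, −1.24 for atpF, −1.30 for atpA, −0.41 for atpB and −0.49 for atpE. For genes of the ribosome and other tasks they were −0.87 for rpl33, −0.64 for rps18, −0.53 for rpl20, −0.35 for rps19, −0.42 for rpl22, −0.59 for rps16, −0.76 for rps2, −0.68 for rps4, −0.56 for clpP, −0.52 for matK and −0.40 for accD. The calls of psbJ, matK and rpl20 ended without single arrays, as given beside each gene. Groups of 3 arrays are too small for a check of single outlying arrays, and the explanation of these differences was not tested.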

How the results depend on the processing

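Counts of called members and medians over all members stayed close to those reported with the other pseudocounts and the filter on dim probe sets. They did so too with the filter on probe sets that can match several transcripts. With the larger pseudocount rpl16 was called lower between 2 d and 8 d. The median of class III was then −0.845 at 2 d and −0.877 at 8 d. Scaling on the poly(A) controls, chosen after seeing the data, changed most: 14 members fell at 2 d (3 of class I and 8 of class II) and 33 at 8 d (15 of class I), 11 of class II and 0 of class III fell between 2 d and 8 d, 6 fell at both steps, and the medians were −0.12, −0.51 and −0.44 for 2 d, 8 d and 8 d minus 2 d. Under it the changes of psaI (0.009), petB (0.066), psbE (0.14), psbF (0.10) and atpE (0.12) at 2 d and of psbJ (0.18), psbK (0.036), psbI (0.14) and rps3 (0.012) at 8 d turned above 0, and the medians of class I at 2 d (0.14) and class III between 2 d and 8 d (0.18) did too. After quantile normalization 8 members of class I fell at 2 d, and atpE turned to 0.018. With array medians set to 0 the medians were −0.66 at 2 d and −1.33 at 8 d, and 9 members fell late alone. With scaling on the hybridization controls the medians were −0.83 at 8 d and −0.50 between 2 d and 8 d, 0 of class III fell between 2 d and 8 d, and the median of class III there was 0.12. Leaving out each array in turn gave 32 to 37 falls at 2 d, 51 to 51 at 8 d and 40 to 44 between 2 d and 8 d, with medians of −0.53 to −0.40, −1.20 to −1.02 and −0.70 to −0.56. In these fits 23 to 29 members fell at both steps, 7 to 10 early alone and 13 to 18 late alone, and the median of class III between 2 d and 8 d was −0.19 to 0.013. The replicate numbers did not pair the arrays (same-number correlations of −0.091 to 0.106 over 9 pairs, other pairs −0.093 to 0.109), and with a replicate block 37, 51 and 42 members fell at 2 d, 8 d and between 2 d and 8 d, with ccsA called at 2 d (adjusted p = 0.0181) and the second fall of rpl20 lost (adjusted p = 0.0541). The causes of these changes were not tested. Shares of all probe sets called under these settings were not counted.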
